A study of Mus musculus with 6 samples.

Results

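A set of 10 genes of bone morphogenetic protein (BMP) and activin signalling were described across a culture experiment with mouse spermatogonial stem cells: the ligand genes Bmp2, Bmp4, Bmp7 and Inhba, the antagonist genes Grem1 and Fst, and the target genes Id1, Id2, Id3 and Smad6. They were chosen by symbol, as 10 of the 31384 genes of the deposited count table, and all 10 were found there and passed the filter on low counts. The choice was made with earlier results of these data known. Shares and medians over all genes, given below, are thus a description beside the set and not a test of it. RNA from 1 spermatogonial stem cell line was sequenced from 6 libraries in 3 groups of 2. The PTC medium contained 10 ng/mL rat GDNF, a growth factor on which spermatogonial stem cells depend for self-renewal. The NTC medium lacked it, and the LOVA medium held 5 uM lovastatin, a statin that inhibits HMG-CoA reductase, instead. All 3 groups had mitomycin C treated mouse embryonic fibroblasts as feeder cells and received 10 ng/mL mouse EGF, LIF and 10 ng/mL mouse FGF2, and all were collected after 18 days. The stated question was how lovastatin acts on the self-renewal of these cells. Whether libraries of 1 group came from separate cultures is not in the labels, and p-values then measure only the spread between libraries, which may be technical.

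BMPs and activins are secreted dimers of the transforming growth factor beta (TGF-beta) family that bind pairs of type I and type II serine/threonine kinase receptors. BMP receptors activate SMAD1, SMAD5 and SMAD9, activin receptors activate SMAD2 and SMAD3, and both groups of SMADs enter the nucleus with SMAD4 to change transcription. Gremlin (Grem1) and follistatin (Fst) bind ligands outside the cell and keep them from their receptors. In the testis BMP4 and activin are known as signals on spermatogonial differentiation, and fibroblasts are a known source of Grem1, Inhba and Fst in feeder cultures.

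The libraries held 12454671 to 22668087 counts. Germ cell RNA was present in every library: the 15 germ cell markers, such as Ddx4 and Dazl, took 0.498% and 0.504% of the counts in PTC, 0.278% and 0.182% in NTC and 0.332% and 0.176% in LOVA. Those of undifferentiated spermatogonia (11 genes, such as Gfra1 and Zbtb16) took 0.171% and 0.155% in PTC, 0.0673% and 0.0556% in NTC and 0.0927% and 0.0541% in LOVA. None was at 0 in any library, and 8 of the 11 were called lower in NTC and 8 in LOVA against PTC by edgeR. The 15 fibroblast markers, such as Col1a1 and Dcn, took 0.0886% and 0.423% in PTC, 1.20% and 2.00% in NTC and 1.05% and 2.01% in LOVA. They were thus higher in both groups without GDNF, and also higher in the B library than in the A library of each group. The 10 macrophage markers, such as Lyz2 and Cd68, took 0.0243% to 0.0288% in PTC, 0.195% to 0.240% in NTC and 0.0422% to 0.0503% in LOVA. The 8 Sertoli cell markers took at most 0.00362% of any library, with Fshr at 0 in all 6. In such bulk samples fewer cells of a type and less RNA per cell cannot be told apart.

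Without GDNF, 7 of the 10 genes were higher: Bmp4, Inhba, Grem1, Fst, Id1, Id2 and Id3 rose in NTC against PTC, by 3.81-fold (Fst) to 43.4-fold (Grem1). Over all 16121 genes tested, 21.5% were called higher and 12.9% lower in this comparison at an adjusted p under 0.05 by edgeR's quasi-likelihood test with Benjamini-Hochberg adjustment. No member was called lower. Both NTC libraries stood above both PTC libraries for 9 of the 10 and below them for 0, where 39.0% and 38.5% of all genes did so. The median log2 fold change was 2.93 over the 10 members and -0.02 over all genes tested. With lovastatin in place of GDNF the same 7 symbols were called higher against PTC, where 19.8% of all genes were called higher and 10.8% lower, and the members' median was 2.77 against 0.00 for all genes. Both LOVA libraries stood above both PTC libraries for 8 of the 10 and below them for 0, against 38.4% and 37.9% of all genes. Both comparisons use the same PTC libraries. Between LOVA and NTC none of the 10 was called, against 0.0% of all genes.

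**Figure D1:**
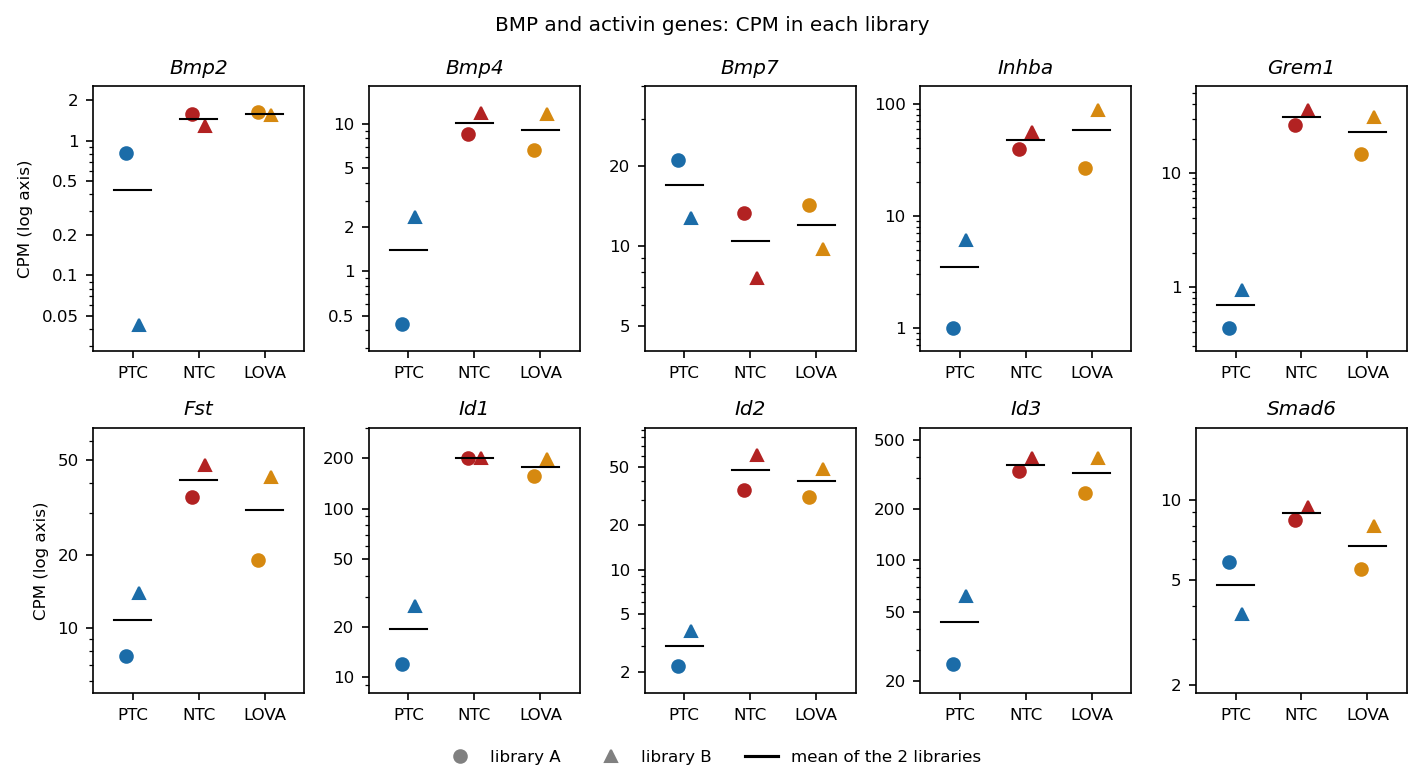
CPM (a gene's counts scaled to the TMM-adjusted total of its library) of each of the 10 genes on a log axis, one panel per gene with its own scale; circles are the A libraries, triangles the B libraries and lines the means of the 2 libraries. Inhba, Grem1, Fst, Bmp4 and Id1 to Id3 lie higher in both libraries of NTC and LOVA than in both of PTC, while the Bmp7 libraries overlap.

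The bases just upstream of Grem1 and Inhba are shown because these had the largest log2 fold changes in NTC against PTC among the antagonist and the ligand members. RefSeq start sites (GRCm38.p6) were matched for 6 of the 10 members; those of Id2 and Id3 lie inside the spans that GENCODE gives these genes, and their windows are not described. For the other 4, the 250 bases before the start were searched on both strands for GGCGCC, a GC-rich SMAD1/5 motif that reads the same on both strands, and for CAGAC or its reverse GTCTG, a SMAD-binding core. Capitals mark the matches. Each sequence is written 5′ to 3′ on the strand of its gene; Grem1 is at chr2:113758649-113758898 on the minus strand and Inhba at chr13:16011601-16011850 on the plus strand.
Grem1: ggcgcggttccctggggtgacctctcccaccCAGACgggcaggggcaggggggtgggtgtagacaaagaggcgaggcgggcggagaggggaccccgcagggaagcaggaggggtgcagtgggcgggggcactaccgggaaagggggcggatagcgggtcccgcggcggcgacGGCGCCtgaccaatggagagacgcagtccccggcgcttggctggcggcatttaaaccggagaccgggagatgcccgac
Inhba: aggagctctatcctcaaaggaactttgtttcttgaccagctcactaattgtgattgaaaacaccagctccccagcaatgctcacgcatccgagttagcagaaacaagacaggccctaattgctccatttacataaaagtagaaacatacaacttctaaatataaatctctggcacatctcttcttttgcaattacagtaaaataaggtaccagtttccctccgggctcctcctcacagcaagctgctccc
Grem1 held GGCGCC once, starting 78 bases before the RefSeq start, and CAGAC once, at 219 bases. Inhba held neither. Over 32851 such windows of the same length, 9.59% held GGCGCC and 42.2% held CAGAC. The windows before Bmp4 and Smad6 also held neither. The Grem1 window was 72.0% G or C and the Inhba window 43.2%, where the median window was 52.4%. A match is a description of letters and not of a bound site.

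Of the 3 BMP ligand genes among the members, Bmp4 was called higher, and Bmp2 and Bmp7 were not called. Bmp4 (ENSMUSG00000021835, chromosome 14, 46383520 to 46390669, mm10) stood at 0.439 and 2.34 CPM in PTC, at 8.60 and 11.9 CPM in NTC and at 6.69 and 11.7 CPM in LOVA. Both PTC libraries were below all 4 others, which overlapped each other. The log2 fold change was 2.82 (SE 0.69, 95% interval 1.18 to 4.46, adjusted p = 0.0242 by edgeR's quasi-likelihood test) in NTC against PTC, and 2.66 (SE 0.69, adjusted p = 0.0314) in LOVA against PTC. The PTC values rest on 7 and 55 counts.

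Bmp2 (ENSMUSG00000027358, chromosome 2, 133552159 to 133562885), a ligand best known from bone formation, was near the limit of detection, with 13 and 1 counts in PTC, 20 and 20 in NTC and 23 and 18 in LOVA. That corresponds to 0.814 and 0.0426 CPM, 1.59 and 1.29 CPM, and 1.64 and 1.55 CPM. The PTC libraries lay below the others but far from each other, and the difference of 1.83 on the log2 scale in NTC against PTC had an interval of -0.57 to 4.23 (edgeR adjusted p = 0.191). Its estimate ranged from 0.81 to 4.83 when 1 library was left out.

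Bmp7 (ENSMUSG00000008999, chromosome 2, 172868012 to 172940321), a ligand with roles in kidney and in germ cell development, had a different pattern. It stood at 21.2 and 12.8 CPM in PTC, 13.4 and 7.60 CPM in NTC and 14.3 and 9.79 CPM in LOVA, so every pair of groups overlapped. The log2 difference was -0.70 in NTC against PTC (interval -1.65 to 0.26, edgeR adjusted p = 0.209) and -0.49 in LOVA against PTC (adjusted p = 0.365). When libraries were scaled to the germ cell markers instead, the sign turned (0.29 and 0.43). In each group its B library was lower than its A library, opposite to the 7 called members.

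Inhba (ENSMUSG00000041324, chromosome 13, 16011851 to 16031621), which encodes the inhibin beta A chain that forms activin A as a dimer, stood at 1.00 and 6.05 CPM in PTC. It reached 39.2 and 56.6 CPM in NTC and 27.0 and 88.7 CPM in LOVA, where the libraries lay far apart. The groups without GDNF overlapped each other and stood above both PTC libraries. Its log2 fold change was 3.72 in NTC (SE 0.89, interval 1.57 to 5.87, edgeR adjusted p = 0.0250) and 3.99 in LOVA (SE 0.90, adjusted p = 0.0259), each against PTC.

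Grem1 (ENSMUSG00000074934, chromosome 2, 113746164 to 113758646, minus strand), which encodes the BMP antagonist gremlin 1, had the largest difference of the 10. It was counted 7 and 22 times in PTC, 335 and 557 times in NTC and 207 and 359 times in LOVA, or 0.439 and 0.937 CPM, 26.7 and 35.9 CPM, and 14.7 and 30.8 CPM. Among the upstream windows described, that of Grem1 alone held both motifs, and a link to its level was not tested. Both PTC libraries were under 1 CPM, and every library without GDNF was above 10 CPM. The log2 fold change was 5.44 in NTC (SE 0.54, interval 4.16 to 6.72, edgeR adjusted p = 0.00795) and 4.98 in LOVA (SE 0.53, adjusted p = 0.0167, 31.5-fold), each against PTC.

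Fst (ENSMUSG00000021765, chromosome 13, 114452290 to 114458951), which encodes the activin-binding protein follistatin, moved less. It stood at 7.58 and 14.0 CPM in PTC, 35.0 and 47.5 CPM in NTC and 19.1 and 42.3 CPM in LOVA. All 4 libraries without GDNF lay above PTC, with the lower LOVA library closest to it. The log2 fold change was 1.93 in NTC (SE 0.46, interval 0.85 to 3.01, edgeR adjusted p = 0.0223) and 1.50 in LOVA (SE 0.45, adjusted p = 0.0455), the smallest of the 7 called members in each.

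The ID proteins are helix-loop-helix factors that lack a DNA-binding domain and hold back other factors of that family, and their genes are classic early targets of BMP signalling. Id1 (ENSMUSG00000042745, chromosome 2, 152736251 to 152737410) stood at 12.0 and 26.4 CPM in PTC, 198 and 201 CPM in NTC and 156 and 197 CPM in LOVA. Id2 (ENSMUSG00000020644, chromosome 12, 25093799 to 25097140, minus strand) stood at 2.19 and 3.83 CPM, 34.9 and 60.3 CPM, and 31.2 and 48.9 CPM in the same order. Id3 (ENSMUSG00000007872, chromosome 4, 136143497 to 136145755) stood at 25.2 and 62.2 CPM, 330 and 392 CPM, and 247 and 395 CPM. For each of these Id genes both PTC libraries lay below all 4 others. In NTC against PTC the log2 fold changes were 3.37 for Id1 (SE 0.37, edgeR adjusted p = 0.00856), 3.96 for Id2 (SE 0.44, adjusted p = 0.00847) and 3.04 for Id3 (SE 0.46, adjusted p = 0.0104). In LOVA against PTC they were 3.19 for Id1 (edgeR adjusted p = 0.0167), 3.71 for Id2 (0.0167) and 2.87 for Id3 (0.0170). Id4, the remaining gene of the family, which marks undifferentiated spermatogonia, did not share this pattern. It stood at 39.1 and 33.9 CPM in PTC, 16.9 and 25.6 CPM in NTC and 18.1 and 29.0 CPM in LOVA. Its log2 difference from PTC was -0.78 in NTC (interval -1.52 to -0.04, edgeR unadjusted p = 0.0424, adjusted p = 0.0924) and -0.63 in LOVA (adjusted p = 0.155). With 1 library left out, the Id4 difference of NTC from PTC stayed between -1.11 and -0.51. Scaled to the germ cell markers, the sign for Id4 turned (0.33 and 0.45).

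Smad6 (ENSMUSG00000036867, chromosome 9, 63953076 to 64022059, minus strand) encodes an inhibitory SMAD that BMP signalling is known to induce. It stood at 5.83 and 3.70 CPM in PTC, 8.44 and 9.41 CPM in NTC and 5.48 and 7.99 CPM in LOVA. The NTC libraries lay above PTC and the LOVA libraries overlapped it. Its log2 difference was 0.91 in NTC (interval 0.04 to 1.78, edgeR unadjusted p = 0.0427, adjusted p = 0.0928) and 0.50 in LOVA (adjusted p = 0.317). Scaled to the germ cell markers, Smad6 was called in NTC (1.98, edgeR adjusted p = 0.0434). That scaling also raised the median log2 fold change of all genes by 1.06. With it 5147 genes were called higher in NTC, against 3472 with TMM scaling.

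**Figure D2:**
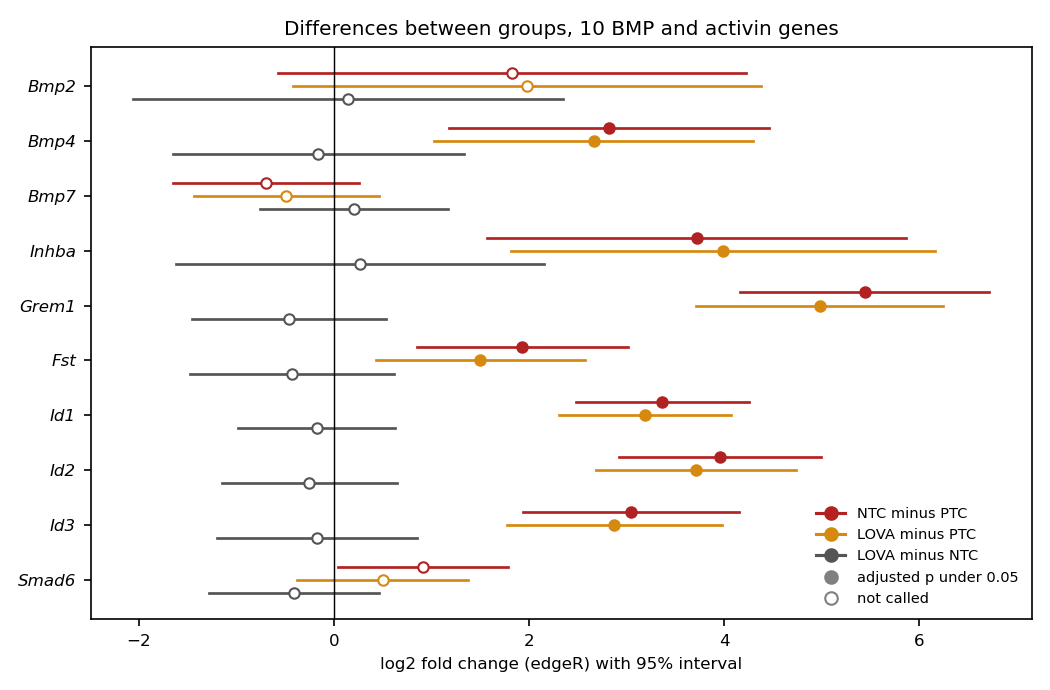
Log2 fold change of each of the 10 genes from edgeR (horizontal axis) with its 95% interval, for NTC minus PTC, LOVA minus PTC and LOVA minus NTC; filled points passed an adjusted p of 0.05. Grem1 lies farthest from 0 at 5.44 in NTC and 4.98 in LOVA, and all 10 intervals of LOVA minus NTC include 0.

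These calls rest on 2 libraries a group, and single libraries decided some of them. Without NTC B, none of the 7 members passed in NTC against PTC by edgeR (adjusted p from 0.0562 for Grem1 to 0.139 for Inhba), although their log2 fold changes stayed between 1.70 (Fst) and 5.22 (Grem1), and over all genes 1 was called higher and 0 lower. Without PTC A, Bmp4 and Fst were lost, without NTC A Bmp4 and Inhba, and without either LOVA library Inhba. In LOVA against PTC, 2 members (Grem1 and Id2) were called without LOVA B, and 4 each without PTC A (Bmp4, Inhba and Fst lost) or without NTC B (the same 3 lost). Bmp4 and Fst were lost without NTC A, and Inhba without LOVA A. Grem1 and Id2 were the members called in LOVA against PTC whichever library was left out (highest edgeR adjusted p = 0.0415).

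Between LOVA and NTC, which both lacked GDNF, all 10 members had an edgeR adjusted p of 1, and the unadjusted p was under 0.05 for 0 of 10, ranging from 0.301 to 0.878. DESeq2 and limma-voom also called 0 of the 10, while over all genes edgeR had 561 at an unadjusted p under 0.05 and DESeq2 called 21 higher and 87 lower. The log2 difference was largest for Grem1 at -0.46 (interval -1.45 to 0.53), Fst at -0.43 (-1.47 to 0.61) and Smad6 at -0.41 (-1.28 to 0.46). It was -0.18 for Id1 (-0.98 to 0.63), -0.25 for Id2 (-1.15 to 0.65) and -0.17 for Id3 (-1.20 to 0.85). The ligands were at -0.16 for Bmp4 (-1.65 to 1.33), 0.27 for Inhba (-1.61 to 2.15), 0.21 for Bmp7 (-0.75 to 1.17) and 0.15 for Bmp2 (-2.05 to 2.35). These intervals leave room for a difference of more than 1 log2 unit in every member except Id1. Both LOVA libraries lay below both NTC libraries for Id1 and Smad6, where 13.0% of all genes tested did so, and above them for 0 members, where 12.7% did.

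Per kilobase of exon, which allows levels of different genes to be compared, Id3 and Id1 stood far above the rest. Id3 had 24.4 CPM per kb in PTC, 202 in NTC and 179 in LOVA, and Id1 had 16.6, 172 and 152 (means of 2 libraries). Id2 followed in the groups without GDNF at 19.5 and 16.4 CPM per kb, up from 1.24 in PTC. The level of Fst was 2.35, 8.99 and 6.69 CPM per kb, that of Grem1 0.166, 7.54 and 5.49, and that of Inhba 0.551, 7.49 and 9.05. Among the 4 ligand genes of the set, Bmp7 had the highest level in PTC at 4.22 CPM per kb, whereas in NTC it was Inhba at 7.49, followed by Bmp4 at 4.55 and Bmp7 at 2.61. Smad6 stood at 1.49, 2.78 and 2.10 CPM per kb, and Bmp2 was lowest in each group at 0.121, 0.405 and 0.448. Among the members in NTC, Fst, Grem1 and Inhba are neighbours whose libraries overlapped on this scale.

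Fibroblast markers moved with the called members: 9 of the 15 were called higher in NTC and 9 in LOVA against PTC, with median log2 fold changes of 2.94 and 2.77. Each member was therefore also expressed per 1000 counts of the fibroblast markers of the same library. On this scale 3 members were above both PTC libraries in both NTC libraries (Grem1, Inhba and Id2), where 3.08% of all genes tested were, and 2 in both LOVA libraries (Grem1 and Inhba), where 2.90% were. Grem1 had 0.527 and 0.229 counts per 1000 marker counts in PTC, 2.24 and 1.68 in NTC and 1.44 and 1.44 in LOVA. That is 5.18 times the PTC mean in NTC and 3.81 times in LOVA. Inhba had 1.21 and 1.48 in PTC, 3.28 and 2.66 in NTC and 2.64 and 4.13 in LOVA. Id2 had 2.64 and 0.938 in PTC, 2.92 and 2.83 in NTC and 3.05 and 2.28 in LOVA, so the LOVA libraries overlapped PTC.

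The other called members did not stand above PTC in both libraries on this scale with all 15 markers. Id1 had 14.5 and 6.47 counts per 1000 marker counts in PTC, 16.6 and 9.41 in NTC and 15.3 and 9.18 in LOVA. Id3 had 30.3 and 15.2, 27.6 and 18.4, and 24.1 and 18.4 in the same order. Bmp4 had 0.527 and 0.573, 0.721 and 0.556, and 0.655 and 0.544. All of these overlapped between the groups. Fst, Bmp7 and Smad6 were below both PTC libraries in both libraries of NTC and LOVA, as were 85.9% of all genes tested in NTC and 85.4% in LOVA; Fst had 9.11 and 3.42 in PTC against 2.94 and 2.23 in NTC and 1.87 and 1.97 in LOVA. Between LOVA and NTC, Grem1 and Fst were lower per marker count in both LOVA libraries and no member was higher, where 5.32% and 7.36% of all genes were. With 2 libraries a group the smallest two-sided p of an exact permutation test is 0.333, so no test was made. When the collagen genes of the list alone were used, 4 members were above in NTC and 4 in LOVA: Bmp4 joined in both, at 1.44 and 1.29 times the PTC mean, Id2 was also above in LOVA, and Fst and Smad6 overlapped PTC in NTC. Without Mmp2 and Postn, Bmp4 likewise joined, at 1.29 and 1.18 times, which made 4 members in NTC and 3 in LOVA.

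Per count of the germ cell markers, by contrast, 9 of the 10 members were above PTC in both NTC libraries and in both LOVA libraries, where 78.9% and 72.5% of all genes tested were, and Bmp7 overlapped. Within groups, each of the 7 called members was, like the fibroblast markers, higher in the B library than in the A library in PTC, NTC and LOVA. For Id1 in NTC the difference was small, with A at 198.2 and B at 200.5 CPM. Bmp2 and Bmp7 were lower in the B library of every group, and Smad6 in that of PTC. Macrophage markers moved in a different way: 10 of 10 were called higher in NTC and 2 of 10 in LOVA against PTC. Between LOVA and NTC 0 of them were called, and their median log2 difference was -2.30, against -0.17 for the 10 BMP and activin genes. None of the macrophage or fibroblast markers was at 0 in any library. The part of fibroblasts, macrophages or the fall in spermatogonial markers in the members' differences was not tested.

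**Figure D3:**
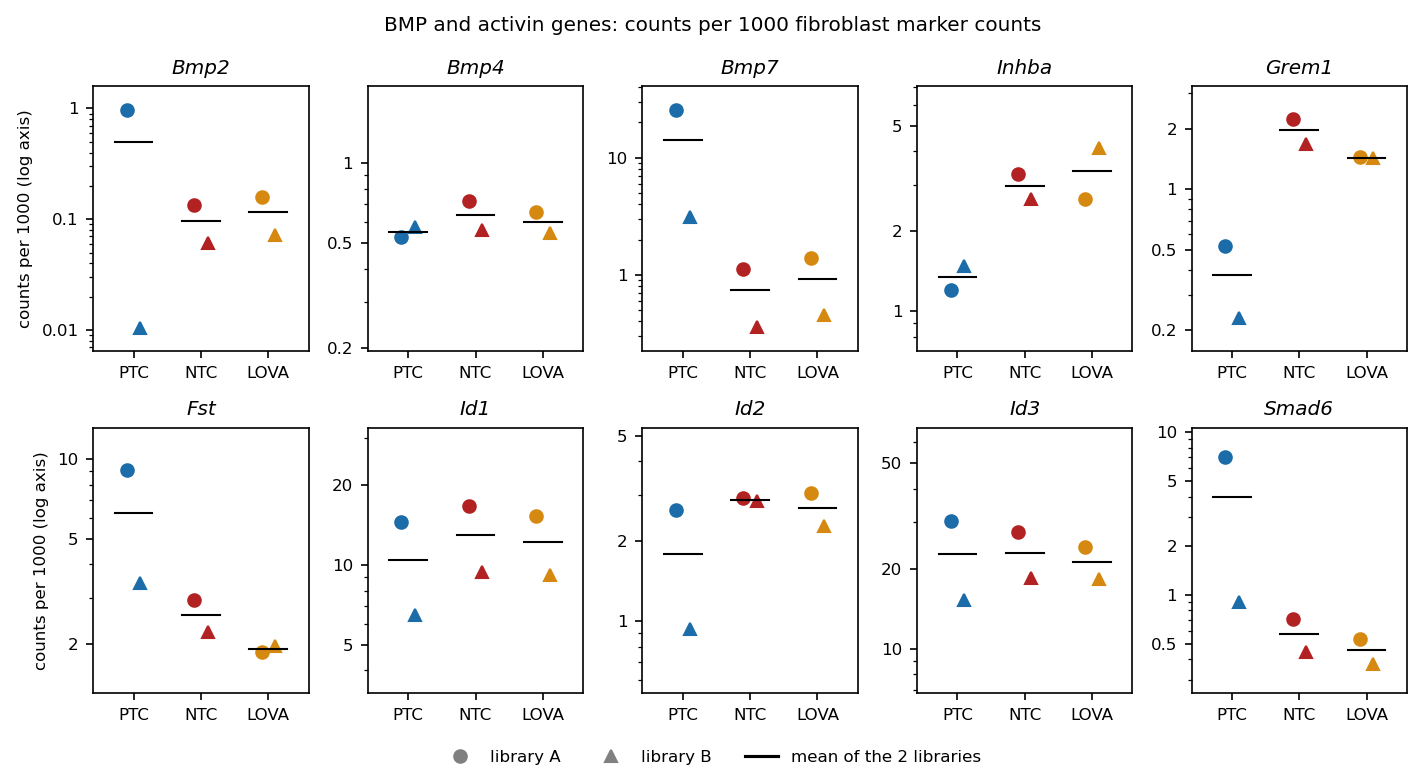
Counts of each of the 10 genes per 1000 counts of 15 fibroblast markers in the same library (log axis, own scale per panel); circles are the A libraries, triangles the B libraries and lines the means. Grem1 and Inhba lie above both PTC libraries in all 4 libraries without GDNF, Id1, Id3 and Bmp4 overlap between groups, and Fst, Bmp7 and Smad6 lie lower.

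The rest of the pathway was read from a list of 82 other genes found in the table, of which 68 were tested. In NTC against PTC 25 of the 68 were called higher and 6 lower by edgeR, or 45.6% against 34.5% of all genes tested in either direction. Their median log2 fold change was 0.39. By role, 7 of 13 ligand genes, 8 of 16 antagonist genes and 8 of 15 receptor genes were called higher, with 2 receptor genes lower. Of the 16 transducer genes, meaning SMADs and the proteins that bind them, none was called higher and 4 were called lower. The shares of all genes tested were 21.5% higher and 12.9% lower. Without NTC B none of the 68 was called, and 9 were without PTC A, 17 without NTC A and 19 without PTC B.

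Among the ligand genes called higher in NTC were Bmp5 (log2 fold change 3.89, edgeR adjusted p = 0.0229), Tgfb3 (3.68, 0.0121) and Inhbb, the activin beta B chain (3.30, 0.0165). The Bmp5 values rest on few counts, 1 and 4 in PTC and 12 and 45 in NTC. Inhbb stood at 3.01 and 12.6 CPM in PTC, 67.7 and 88.7 CPM in NTC and 53.4 and 85.4 CPM in LOVA, so that both PTC libraries lay below the other 4. Antagonist genes with the largest differences were Bmper, a secreted BMP-binding protein (4.38, adjusted p = 0.0237), Nbl1, a relative of gremlin (3.36, 0.00892), and Lefty1 (3.34, 0.0128). In PTC, Bmper had 3 and 99 counts and Lefty1 had 5 and 4. Of the receptor genes, Tgfbr2 (3.16, 0.0219), the coreceptor Tgfbr3 (2.70, 0.0237) and the endothelial type I receptor Acvrl1 (2.50, 0.0458) led. Acvrl1 had 24 and 211 counts in PTC. When 1 library was left out, it stayed called only without PTC B (range 1.75 to 4.32). The activin receptor Acvr2b and the pseudoreceptor Bambi were lower. The lower transducer genes included Tgif2 (-1.07, 0.0432), Lemd3 (-1.06, 0.0125) and Ski (-0.84, 0.0137), and these 3 restrain SMAD-driven transcription. Zfyve9 was the fourth gene called lower, and 12 of the 16 transducer genes were not called. The signs for Lemd3 and Ski turned when libraries were scaled to the germ cell markers (0.01 and 0.24). That scaling raised the median log2 fold change of all genes by 1.06. It left 39 genes called lower in NTC, against 2086 with TMM scaling. Of the 8 other target genes, Runx2 (2.22, 0.0334) and Pmepa1 (1.78, 0.0170) were called higher and 6 were not called. That is 25.0% called higher, near the 21.5% of all genes tested.

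**Figure D4:**
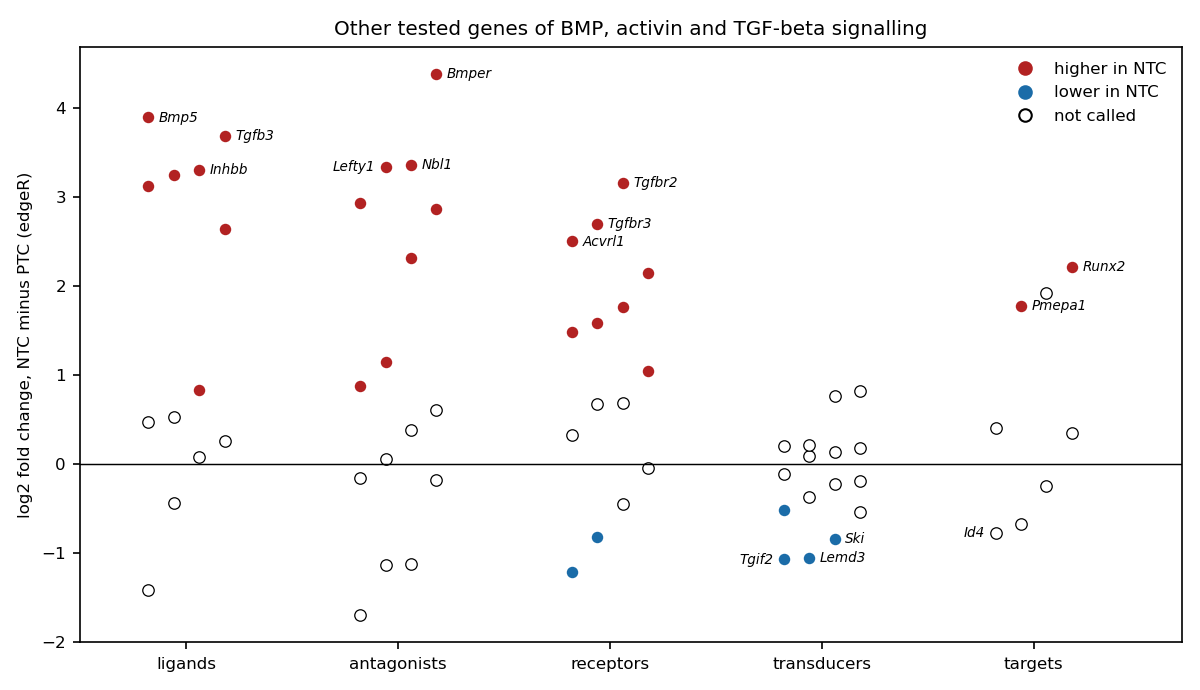
Log2 fold change of NTC minus PTC from edgeR (vertical axis) for the 68 other tested pathway genes, by role; red points were called higher in NTC, blue points lower and open points not called. Ligand, antagonist and receptor genes reach up to 4.38 (Bmper), while the 4 called transducer genes all lie below 0.

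In LOVA against PTC, which shares the PTC libraries, 22 of the 68 were called higher and 3 lower, 36.8% against 30.6% of all genes. Bmper was at 3.65, Bmp5 at 3.58, Tgfb3 at 3.36, Tgfb2 at 3.25 and Nbl1 at 3.20 on the log2 scale, with edgeR adjusted p of 0.0385, 0.0321, 0.0181, 0.0225 and 0.0167. Of the receptor genes, Tgfbr2 was at 3.02 (0.0272), Tgfbr3 at 2.76 (0.0264) and Eng at 2.44 (0.0181). Runx2 (2.16, 0.0397) and Pmepa1 (1.59, 0.0255) were again higher, and Lemd3 (-0.73, 0.0301) and Ski (-0.68, 0.0255) lower. The signs of Lemd3 and Ski turned under scaling to germ cell markers (0.30 and 0.31). The Lemd3 call was lost whichever library was left out (log2 fold change -0.86 to -0.61). Ski stayed called only without LOVA A (range -0.76 to -0.60). Without LOVA B 2 of the 68 were called, and without PTC A 6. Between LOVA and NTC edgeR called none of the 68, with 1 at an unadjusted p under 0.05, and the other fits run called none. The abundant antagonist Fstl1 differed by 0.08 (interval -1.61 to 1.78) and Bmpr1a, the main BMP type I receptor of many tissues, by 0.23 (-0.44 to 0.90).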

How the data were processed

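RNA was sequenced as directional paired-end libraries, per the labels' protocols, and the authors deposited 1 table of whole-number counts per Ensembl gene, with 1 column per library. The submitters' processing notes name Trimmomatic, Bowtie2, RSEM, DESeq2 and mm10, with no roles. The table does not settle whether the counts are RSEM estimates that were rounded before deposit. The column letters A and B match no number in the labels. The strand setting of the counting is not given in the sources used here; the opposite-strand genes overlapping Bmp4, Inhba and Fst had at most 10 counts in any library.

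Symbols came from GENCODE M21 (31363 of 31384 genes matched). Counts were fitted with edgeR 4.0.16 in R 4.3.3, using TMM scaling, a filter on low counts (16121 genes tested), 1 coefficient per group over all 6 libraries, robust quasi-likelihood tests and Benjamini-Hochberg adjustment, with an adjusted p under 0.05 as a call. CPM values use TMM-scaled library sizes, and CPM per kb divides by merged exon length. The scripts were tested on simulated data. DESeq2 1.42.0, limma-voom (limma 3.58.1), other scalings, no filter, only the 4 libraries of a contrast, a block on the letters and leaving out each library were the alternatives. All 10 members and Id4 were named in each contrast. Other pathway genes were named as the 3 called genes of each role with the largest difference and a mean CPM of at least 1, or the 2 most abundant where none was called; a few genes that these rules pick are not reported here. Acvr2b, Bambi and Zfyve9 were named, after their values were seen, to complete small counts of genes called lower. The members and all gene lists were chosen with earlier results of these data known.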

Additional observations from a re-analysis of the deposited data

How the results depend on the processing

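Scaling to the germ cell markers raised the median log2 fold change of all genes by 1.06 in NTC and 1.00 in LOVA against PTC. It gave 5147 genes higher and 39 lower in NTC (3472 and 2086 in the reported fit) and 4451 and 32 in LOVA (3192 and 1747), with 8 and 7 members called higher. Bmp7 turned to 0.29 and 0.43, Id4 to 0.33 and 0.45, Lemd3 to 0.0051 and 0.30, and Ski to 0.24 and 0.31 (NTC, then LOVA). Library totals without TMM shifted the NTC median by -0.11. DESeq2, DESeq2-type size factors, library totals and no filter each called 7 members higher in both comparisons with PTC. limma-voom called 7 and 6, and fits of only the 4 libraries of a contrast 6 and 5.

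The column letters do not establish pairs. Same-letter deviations correlated at 0.222 (PTC and NTC), 0.265 (PTC and LOVA) and 0.322 (NTC and LOVA). With the letter as a replicate block, 7 members were higher in each comparison with PTC and 1, Bmp7, was lower in NTC. The block gave 4421 genes higher and 3632 lower in NTC, 4280 and 3466 in LOVA with 40 other pathway genes (25 in the reported fit), and 18 higher and 72 lower between LOVA and NTC.

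Lower calls in LOVA against PTC were 2703 with no filter and 881 with only its 4 libraries. Between LOVA and NTC, calls higher and lower were 44 and 147 with no filter, 21 and 87 with DESeq2, and 0 higher with 15 lower for library totals and 4 lower for limma-voom. No setting called a member or another pathway gene there. With the collagen genes alone, 4 members stood above PTC in LOVA per marker count in place of 2.

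Leaving out 1 library, where a lone library is taken to vary like the other groups, gave 1 to 3635 genes higher, 0 to 3091 lower, 0 to 7 members and 0 to 27 other pathway genes in NTC against PTC. In LOVA against PTC it gave 628 to 3580 higher, 57 to 3174 lower, 2 to 7 members and 2 to 28 pathway genes, and between LOVA and NTC 0 to 2 genes lower. Uncalled differences between LOVA and NTC crossed 0 for Bmp2 (-0.0013 to 0.28), Bmp4 (-0.61 to 0.19), Bmp7 (-0.15 to 0.64), Inhba (-0.83 to 0.89), Fst (-1.11 to 0.032), Id2 (-0.62 to 0.20), Id3 (-0.55 to 0.13), Bmpr1a (-0.19 to 0.56), Fstl1 (-0.54 to 0.59), Id4 (-0.24 to 0.48), Inhbb (-0.55 to 0.12), Pmepa1 (-0.64 to 0.15), Smad2 (-0.18 to 0.14), Tgfb1 (-0.31 to 0.0095) and Tgfbr2 (-0.64 to 0.24). The causes of these changes were not tested. Depth limits Bmp2 most, with 1 to 23 counts a library, and Grem1 in PTC, with 7 and 22.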

Other observations

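Several ligands of the family were at or near 0 in these cultures. Of the 82 other pathway genes, 14 did not pass the filter on low counts, and none of them exceeded 15 counts in any library. They include Nodal with at most 10 counts, Amh with at most 3, Gdf9 with at most 12, Bmp15 with at most 14, Mstn with at most 3 and Gdf5 with 0, as well as the antagonist Cer1 with at most 7.

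The genes whose levels across the 6 libraries were most like those of each member, by Pearson's r of log2(CPM + 0.5) among 11347 protein-coding genes, are given as a description. The 6 points share their group differences, and many genes follow them. For Bmp4 they were Bmp1 and F3, for Inhba Fbxo4 and Ogn, for Grem1 Arpc1b and Lacc1, and for Fst Tbc1d9 and Mrgprf. For Id1 they were Sqor and Dglucy, for Id2 Gabarapl1, and for Id3 Cdkn1a and Ergic3, and for each of these 7 members r was between 0.996 and 1.00. Smad6 was most like Mmd (0.994) and Tagln2 (0.992), Bmp7 most like Utp14a (0.995) and Fbxl12 (0.987), and Bmp2 most like Nudt22 (0.981) and Trmt13 (0.978). Ogn, an extracellular matrix protein gene, stood at 2.26 and 12.7 CPM in PTC, 108 and 154 CPM in NTC and 74.0 and 232 CPM in LOVA, so that its B library exceeded its A library in each group, as for Inhba.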
